A study of Homo sapiens with 12 samples.

Results

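Vehicle-treated cells of an endothelial line that stably carried human estrogen receptor alpha (ERa_EC) were compared with vehicle-treated cells of the same line that carried an empty vector (Ctrl_EC). It bears on what the receptor does in vascular cells without its ligand. The comparison used 6 of the 12 arrays of the study, 3 of receptor cells and 3 of control cells, all cultured without added hormone, and it is described over the 15249 genes that could be tested. The line was EA.hy926, an immortal hybrid made by fusing umbilical vein endothelium with lung carcinoma cells, which per the labels lacks estrogen receptor alpha. Receptor cells had received the plasmid pCMV3-ERalpha and control cells the backbone pCDNA 3.1. Both went through 2 to 3 weeks of puromycin at 5 µg/ml, 8 to 10 single colonies were picked, and these were kept at 2 µg/ml. At 80% confluence the medium was made serum-free for 24 h, after which ethanol was given for 16 h. The other 6 arrays held the same lines given 10 nM 17-beta-estradiol for 16 h. The labels number the replicates 1 to 3 but tie no number to a colony, so it is not known whether the 3 receptor cultures, called biological replicates in the design text, were separate clones. The p-values measure only the spread between cultures, pooled over all 12 arrays, and these cultures may be repeats of the same cells. A difference between the lines that came with transfection, selection or picking of colonies cannot be told apart from an effect of the receptor.

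Estrogen receptor alpha, the product of ESR1, is a nuclear receptor: bound to estradiol it attaches to estrogen response elements in DNA, or to other factors already there, and recruits coactivators or corepressors. Without hormone it is held partly in chaperone complexes, but it can still bind chromatin and can be activated through phosphorylation by growth factor kinases. In endothelium it is known for raising nitric oxide synthesis and for shaping vessel repair and inflammation.

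Between 18593 and 19612 probes were detected per vehicle array (39.3% to 41.4%), and median raw intensities lay between 104.5 and 120.7. Of 12 endothelial markers 8 were detected on all 6 arrays, among them CDH5 and PECAM1. KDR was detected on 3 control arrays and 1 receptor array, ERG on 2 control and 3 receptor arrays, and CLDN5 and EMCN on 0 of the 6 arrays. Of 6 epithelial markers, chosen for the carcinoma parent, 4 were detected on all 6 arrays. The first principal component of the 6 arrays, with 50.4% of the variance, separated the lines, and the second, with 25.9%, separated the receptor cultures from each other (scores 27.9, -9.9 and -26.3). Receptor cultures also varied more, with a median gene-wise SD of 0.195 on the log2 scale against 0.117 among control cultures.

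The single probe for ESR1 was detected on 0 of 12 arrays. Control cells averaged 4.50 ± 0.06 (SD, n = 3) in normalized log2 units, and receptor cells 4.55 ± 0.14. The difference of 0.05 lay within the spread of the arrays (p = 0.7 by an exact permutation test, two-sided, over the 20 possible splits, where 3 against 3 arrays cannot go below 0.1). The transgene's expression is therefore not shown by this probe, whose place on the transcript relative to the cloned insert the files do not give. The labels report the receptor by western blot. ESR2, the gene of estrogen receptor beta, had 2 probes, the brighter of which was detected on 0 control arrays and 1 receptor array, with a log2 fold of 0.12 ± 0.12 (adjusted p = 0.572). GPER1, a membrane estrogen receptor, was detected on 1 control and 2 receptor arrays, with a log2 fold of 0.06 ± 0.18 (adjusted p = 0.871), and its sign turned with the array left out.

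Receptor cells differed widely from control cells under vehicle. Log2 folds of receptor over control cells are given ± SE with n = 3 arrays per group, and adjusted p-values are those of limma over all genes tested. By these 1302 of 15249 genes (8.54%) passed an adjusted p of 0.05 and are termed called, of which 571 were higher (3.74%) and 731 lower (4.79%) in receptor cells. On all 1302 the 3 receptor arrays lay on one side of the 3 control arrays, a separation that 4565 genes (29.9% of those tested) showed. The changes were mostly moderate, with a median absolute log2 fold of 0.65 among the called genes, and 231 (1.51%) reached 2-fold in the fit. A total of 3877 genes had an unadjusted p under 0.05. The spread in this fit came from all 12 arrays, those given estradiol included. With the vehicle arrays fitted alone 917 genes were called, 425 higher and 492 lower. The number called changed with the array left out, which leaves a group of 2. It was 589 without control culture 1, 479 without control culture 2 and 818 without control culture 3. Without receptor culture 1, 2 or 3 it was 1209, 647 or 1555. It was 3020 when arrays were weighted by their quality.

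A stricter set was formed by genes that were called and stood at least 2-fold from the control mean on the same side in each of the 3 receptor cultures. It held 103 genes (0.675% of those tested), 29 higher (0.19%) and 74 lower (0.485%), and 9 of the 103 carried only placeholder symbols. Among these genes the median SD was 0.11 in control cells and 0.246 in receptor cells. In 2 genes the rise and in 14 genes the fall was at least 4-fold in every culture. Of the 29 higher genes 4 were detected on 0 control arrays, and of the 74 lower genes 12 were detected on 0 receptor arrays. The members just inside the limit of 1 log2 unit were LOC440991 (smallest difference of a culture 1.00), MTCL2 (1.002) and IL1RL1 (1.005), and those just outside were FILIP1L (0.999) and SERPINE2 (0.998). The gene RARB, a retinoic acid receptor, stood 2-fold lower in each culture (differences -4.09, -1.02 and -1.06) but was not called (adjusted p = 0.16). The size of the set depended on how dim probes were treated: it was 56 with an offset of 50 in place of 16, 28 without background correction and 29 in the authors' normalized values. With fewer cultures that had to agree, it was 180 without receptor culture 1, 115 without receptor culture 2 and 214 without receptor culture 3.

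**Figure D1:**
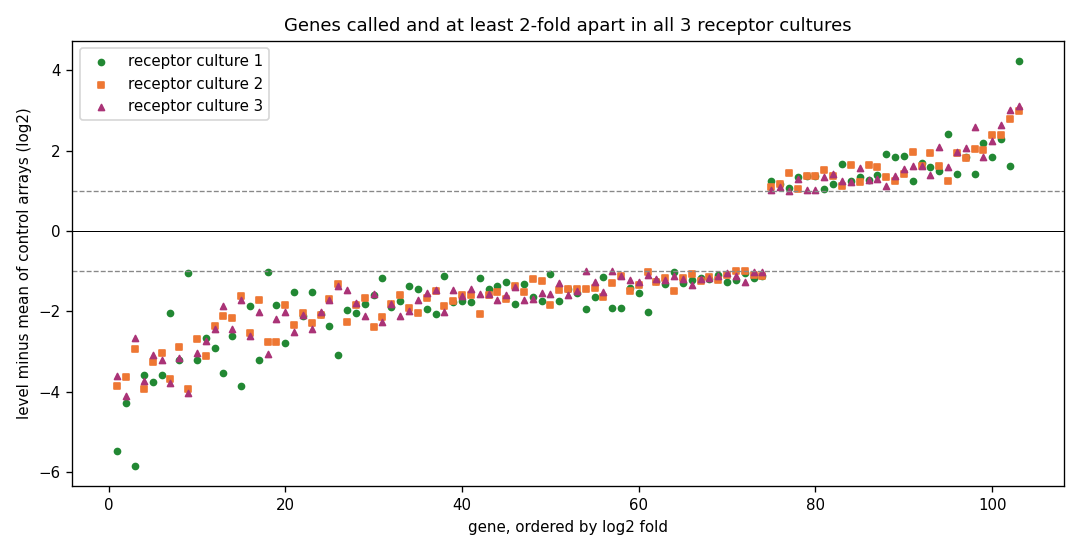
Difference from the mean of the 3 control arrays (vertical axis, log2) for the 103 genes that were called and at least 2-fold apart in every receptor culture, ordered along the horizontal axis by their log2 fold, with 1 marker per receptor culture. Dashed lines mark 2-fold. The markers of a gene lie close together for most genes, and culture 1 departs from the other 2 for several of the strongest decreases.

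The strongest decreases were in genes of secreted proteins, enzymes and regulators with varied roles. CST1 encodes cystatin SN, a secreted inhibitor of cysteine proteases. Its control levels were 13.35, 13.21 and 13.24, and its receptor levels were 7.78, 9.41 and 9.65 in cultures 1, 2 and 3. The groups lay far apart, with culture 1 lowest (log2 fold -4.32 ± 0.35, adjusted p = 1.61e-05, or 19.9-fold lower). CLIP3, a microtubule-binding protein of the trans-Golgi network, had control levels of 8.30, 8.41 and 8.28 and receptor levels of 4.73, 4.39 and 4.59. No receptor array detected it, so the fold is a bound, taken against the lowest level detected on each of those arrays, and it was at least 11.3-fold lower (adjusted p = 9.09e-10). AMTN, which encodes the enamel matrix protein amelotin, likewise went from 7.36, 7.60 and 7.45 to 4.26, 4.59 and 4.29, below detection on every receptor array and at least 6.2-fold lower (adjusted p = 1.30e-07). MSMP, a microseminoprotein, stood at 10.75, 10.54 and 10.70 in control and 7.99, 7.55 and 7.92 in receptor cultures, and all of its arrays detected it (-2.85 ± 0.17, adjusted p = 1.75e-06).

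MGP, the matrix Gla protein that restrains calcification of vessel walls, had control levels of 8.10, 8.02 and 8.01 and receptor levels of 5.13, 5.67 and 5.61. The receptor arrays were even and well below the control arrays (-2.57 ± 0.16, adjusted p = 2.60e-06). CPA3, a carboxypeptidase known from mast cells, was at 8.08, 7.93 and 7.84 in control and at 4.42, 5.84 and 6.09 in receptor cultures, with culture 1 lowest (-2.50 ± 0.36, adjusted p = 0.00126). FSTL5, a follistatin-like gene, went from 10.17, 10.09 and 9.86 to 6.18, 8.43 and 8.32, again with culture 1 far below the others. Its call was the weakest of the 15 largest decreases (adjusted p = 0.0414) and was lost without any 1 of 5 arrays (adjusted p 0.0561 to 0.125). FAM174B, a membrane protein gene, showed the opposite order, at 8.34, 8.39 and 8.28 in control and 7.30, 4.41 and 4.31 in receptor cultures, with culture 1 highest (adjusted p = 0.0306, and 0.0748 to 0.121 without any 1 of 5 arrays).

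**Figure D2:**
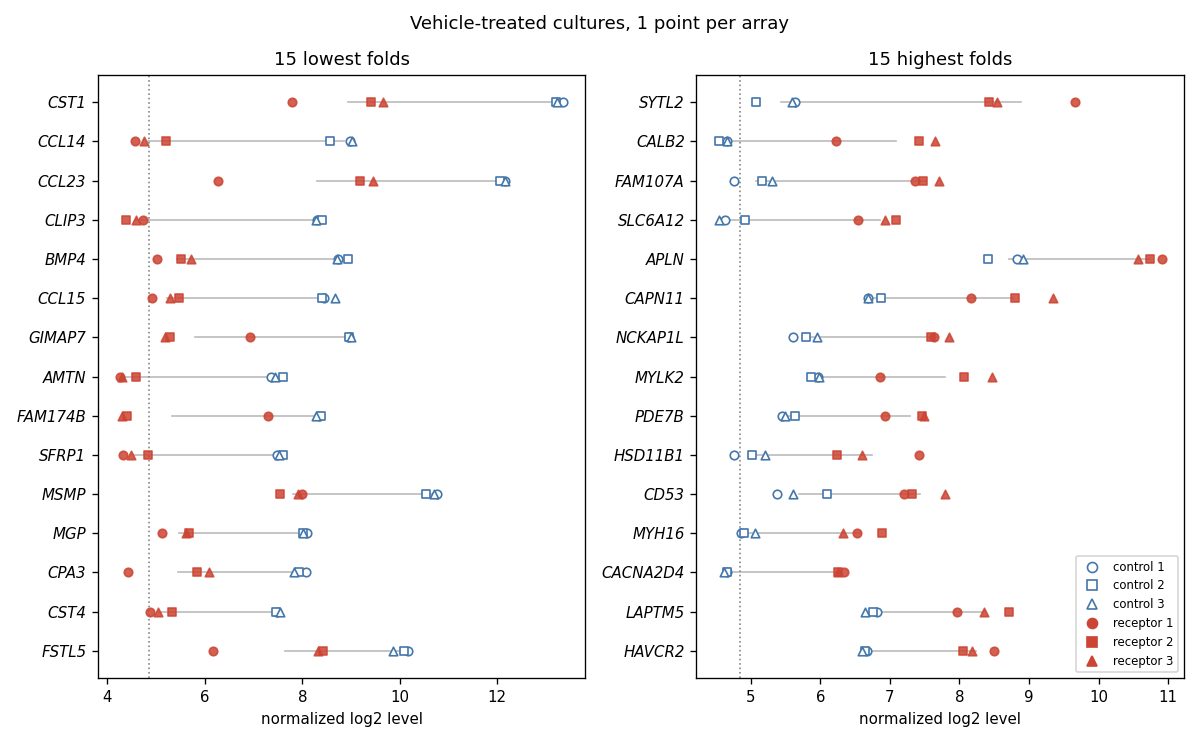
Normalized log2 levels (horizontal axis) of the 15 genes with the lowest folds (left) and the 15 with the highest folds (right) among called genes, 1 marker per vehicle array, open for control and filled for receptor cells. The dotted line is the median of the lowest detected levels of the arrays, and grey lines join the group means. Control markers nearly coincide for most genes, CLIP3, AMTN and SFRP1 lie below the dotted line in all receptor cultures, and CALB2 and CACNA2D4 in all control cultures.

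Chemokines are small secreted attractants of leukocytes, and CCL14, CCL15 and CCL23 are CC chemokines that act through receptors such as CCR1. CCL14 had control levels of 8.98, 8.57 and 9.02 and receptor levels of 4.56, 5.21 and 4.76, where 1 receptor array detected it (log2 fold -4.01 ± 0.24, adjusted p = 1.75e-06). CCL15 had 8.44, 8.40 and 8.68 in control and 4.91, 5.47 and 5.29 in receptor cultures (-3.28 ± 0.21, adjusted p = 2.60e-06). CCL23 had 12.16, 12.07 and 12.15 and 6.27, 9.19 and 9.46, with culture 1 far below the others (-3.82 ± 0.83, adjusted p = 0.015). As the strict set requires, all 3 lay apart from the control mean in every receptor culture. The call of CCL23 was lost without control culture 1 (adjusted p = 0.0548) or 2 (0.0578). The 3 genes are next to each other on chromosome 17 among the tested genes with a position. Of 12 tested members of the chemokine list 3 were called lower (25.0% against 4.79% of all genes), these, and 2 higher (16.7% against 3.74%), with a list median of 0.09. The higher ones were CCL2, which recruits monocytes, with 0.69 ± 0.15 (adjusted p = 0.015), and CCL20. The list counts were 2 lower and 0 higher without control culture 1 or 2, and 4 lower and 3 higher without receptor culture 1.

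The promoters of CCL15 and CCL23 run from 250 bases before to 50 bases after the start of the gene in RefSeq (build GRCh38.p14). They are shown because the genes, next to each other among the tested genes, were lower together. They span chr17:36001504-36001803 (minus strand) and chr17:36017923-36018222 (minus strand). Capitals mark the single match of each to AGGTCA, the half-site that nuclear receptors bind, here read on the opposite strand and beginning at position -67 in CCL15 and -46 in CCL23, counted from the start of the gene.
CCL15: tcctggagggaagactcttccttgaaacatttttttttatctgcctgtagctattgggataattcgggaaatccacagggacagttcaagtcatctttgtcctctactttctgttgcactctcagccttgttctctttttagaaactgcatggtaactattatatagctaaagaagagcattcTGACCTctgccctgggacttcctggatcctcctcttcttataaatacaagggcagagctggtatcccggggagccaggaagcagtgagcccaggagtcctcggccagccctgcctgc
CCL23: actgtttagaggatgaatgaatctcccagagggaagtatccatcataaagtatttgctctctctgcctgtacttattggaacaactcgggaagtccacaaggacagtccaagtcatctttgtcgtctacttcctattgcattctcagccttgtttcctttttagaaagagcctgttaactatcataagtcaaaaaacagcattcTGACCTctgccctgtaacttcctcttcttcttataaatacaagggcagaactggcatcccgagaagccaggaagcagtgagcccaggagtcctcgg
The half-site was searched on both strands and stood in 10.1% of the 9621 promoters of tested genes that the RefSeq table held, in 36 of 300 promoters of genes called higher and in 55 of 530 of genes called lower (10.4%). A match is only these letters in the window. Among the 103 genes it stood in 2 of 15 promoters of higher genes (13.3%) and 6 of 54 of lower genes (11.1%).

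Cystatins inhibit cathepsins and other cysteine proteases, and the list of both had 6 of 14 tested members called lower (42.9% against 4.79% of all genes) and 0 higher, with a median log2 fold of -0.49 against -0.01 over all genes. The medians of cultures 1, 2 and 3 were -0.56, -0.41 and -0.42. CST4, cystatin S, which is next to CST1 among the tested genes of chromosome 20, stood at 7.49, 7.47 and 7.54 in control and 4.89, 5.32 and 5.05 in receptor cultures (-2.41 ± 0.16, adjusted p = 2.60e-06). As the strict set requires, each receptor culture stood at least 2-fold below the control mean. The cysteine cathepsins CTSC and CTSZ had -0.80 ± 0.09 (adjusted p = 2.11e-04) and -0.88 ± 0.14 (adjusted p = 0.00239), and the secreted inhibitor CST3 and the lysosomal carboxypeptidase CTSA were also called lower. Inhibitors and proteases were thus both among the lower genes. Without each array in turn 5 or 6 members were called. CST1 and CST4 are close paralogs, and whether a probe reads both was not tested.

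Bone morphogenetic proteins (BMPs) and TGF-beta are secreted ligands that signal through serine kinase receptors and SMAD proteins, and in endothelium they steer quiescence and sprouting. Of the ligands 3 of 6 tested were called lower, against 4.79% of all genes, and 0 higher. Their median was -0.47 (-0.51, -0.42 and -0.51 in the 3 cultures). There were 2 lower calls without control culture 1, control culture 2 or receptor culture 2. BMP4 had control levels of 8.74, 8.94 and 8.71 and receptor levels of 5.02, 5.52 and 5.72, close to the lowest detected levels of 4.82 to 4.86 on those arrays (log2 fold -3.38 ± 0.23, adjusted p = 3.28e-06, or 10.4-fold lower). BMP6, an endothelial ligand, was lower at -0.71 ± 0.16 (adjusted p = 0.0152), a call lost without control culture 1 or 2 or receptor culture 2 (adjusted p 0.0656 to 0.0715). The stress-induced ligand GDF15 had -0.58 ± 0.11 (adjusted p = 0.00529). Of the receptors 2 of 9 were called lower (22.2%) and 0 higher: ENG, the endothelial co-receptor endoglin, with -0.75 ± 0.13 (adjusted p = 0.00442), and the betaglycan gene TGFBR3 with -0.89 ± 0.14 (adjusted p = 0.00226).

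Of 21 transducers and targets 4 were called lower, against 4.79% of all genes, and 0 higher, while their median was -0.07. ID1 and ID3, target genes of BMP signalling whose products block helix-loop-helix factors, were 2-fold lower in each culture. ID1 stood at 11.06, 11.16 and 10.85 in control and 9.71, 9.86 and 9.83 in receptor cultures (-1.22 ± 0.13, adjusted p = 1.09e-04), and ID3 at 9.62, 9.78 and 9.64 and 8.15, 8.34 and 8.42 (-1.38 ± 0.14, adjusted p = 8.71e-05). Both were among the more even genes of the set, with no receptor culture apart from the others. The inhibitory SMADs, which the pathway induces as feedback, followed with -0.89 ± 0.17 (adjusted p = 0.00608) for SMAD6 and -0.59 ± 0.15 (adjusted p = 0.0263) for SMAD7, and the SMAD7 call was lost without 4 of the 6 arrays (adjusted p 0.0704 to 0.125). Among 10 secreted inhibitors 1 was called in each direction. NOG, the BMP antagonist noggin, went from 4.97, 4.96 and 4.81 to 5.59, 5.59 and 5.93, near the limit of detection in control cells (0.79 ± 0.14, adjusted p = 0.00509), and LTBP3, which holds latent TGF-beta in the matrix, had -0.79 ± 0.12 (adjusted p = 0.00182).

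Interferon-stimulated genes encode antiviral proteins whose transcription interferons induce. Of 45 tested members 16 were called lower (35.6% against 4.79% of all genes) and 0 higher, with a median log2 fold of -0.61. The shift was smaller in receptor culture 1 (median -0.19) than in cultures 2 and 3 (-0.79 and -0.85), while the control arrays kept between -0.07 and 0.04. The count changed with the array left out, with 26 called lower without receptor culture 1 and 5 without receptor culture 2, control culture 1 or control culture 2. Without these last 3 the calls over all genes also fell, from 1302 to 647, 589 and 479. Without receptor culture 1 they were 1209. HERC5, a ligase that attaches ISG15 to proteins, had control levels of 7.43, 7.38 and 7.39 and receptor levels of 5.89, 5.11 and 4.97 (log2 fold -2.08 ± 0.21, adjusted p = 8.61e-05). IFITM1, which restricts virus entry, stood at 9.69, 9.86 and 10.01 and 8.69, 7.71 and 7.59 (-1.86 ± 0.31, adjusted p = 0.00339). In both genes culture 1 fell least and, as the strict set requires, still stood at least 2-fold below the control mean. RTP4 (-0.98 ± 0.18, adjusted p = 0.00662) and USP18, the protease that removes ISG15 (-1.07 ± 0.20, adjusted p = 0.00674), were called as well. Of the 16 sensors and receptors of the pathway 1 was called, the interferon gamma receptor chain IFNGR1, at -0.62 ± 0.13 (adjusted p = 0.015), a call lost without control culture 1, control culture 3 or receptor culture 2 (adjusted p 0.0524 to 0.0642), where the count was 0.

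HERC5 and IFITM1, the 2 genes of this list that were 2-fold lower in every culture, both carry the core of the interferon-stimulated response element close to their starts, searched as GAAA, any 2 bases and GAAA on both strands. Their RefSeq promoters (build GRCh38.p14) span chr4:88456869-88457168 (plus strand) and chr11:313790-314089 (plus strand), and capitals mark the matches on either strand.
HERC5: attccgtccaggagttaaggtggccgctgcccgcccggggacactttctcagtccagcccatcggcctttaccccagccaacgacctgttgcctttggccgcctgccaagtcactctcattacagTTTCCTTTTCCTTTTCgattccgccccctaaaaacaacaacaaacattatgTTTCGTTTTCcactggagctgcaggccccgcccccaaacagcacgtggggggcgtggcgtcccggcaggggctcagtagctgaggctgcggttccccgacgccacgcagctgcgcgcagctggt
IFITM1: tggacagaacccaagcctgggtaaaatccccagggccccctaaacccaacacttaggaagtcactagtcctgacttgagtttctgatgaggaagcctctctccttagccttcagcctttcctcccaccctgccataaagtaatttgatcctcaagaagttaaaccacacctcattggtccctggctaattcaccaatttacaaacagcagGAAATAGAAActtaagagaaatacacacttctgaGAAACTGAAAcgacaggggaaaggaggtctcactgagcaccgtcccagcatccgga
HERC5 held 3 matches on the opposite strand, of which 2 overlap, and IFITM1 held 2. The motif stood in 2.95% of the 9621 promoters of tested genes, in 23 of 34 promoters (67.6%) of the tested interferon-stimulated genes and in 10 of 13 (76.9%) of those called lower. Of promoters of the 103 genes it stood in 0 of 15 higher and 3 of 54 lower ones. The motif was thus common in the list whether or not a member was called.

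GIMAP genes encode GTPases of immunity-associated proteins and form a cluster that lymphocytes and endothelium express. Of 7 tested members 3 were called lower (42.9% against 4.79% of all genes) and 0 higher. The culture medians were -0.33, -1.11 and -1.17 around a list median of -0.66. The count was 4 without receptor culture 1 and 2 without any other array. GIMAP7 stood at 8.95, 8.96 and 9.0 in control and 6.93, 5.28 and 5.19 in receptor cultures (-3.17 ± 0.42, adjusted p = 7.15e-04). GIMAP5 went from 6.04, 6.04 and 6.24 to 4.46, 4.92 and 4.40, with detection on 1 receptor array (-1.51 ± 0.17, adjusted p = 2.35e-04). GIMAP6 had -0.88 ± 0.21 (adjusted p = 0.0204), with culture 1 closest to control, and lost its call without any 1 of 5 arrays (adjusted p 0.0513 to 0.0847). As in the interferon list, culture 1 was the least changed for GIMAP6 and GIMAP7, but not for GIMAP5.

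Genes of endothelial identity gave 8 lower (29.6%) and 2 higher calls (7.41%) among 27 tested, with a median of -0.44 and culture medians of -0.06, -0.47 and -0.65. The 2 higher calls were FLI1 and CD34, and the genes described next are mostly lower ones. Fewer cells of a type and less RNA per cell cannot be told apart in such bulk samples. NOS3, the endothelial nitric oxide synthase, had control levels of 10.89, 11.12 and 10.63 and receptor levels of 9.88, 9.58 and 9.92 (log2 fold -1.08 ± 0.16, adjusted p = 0.00151). Its arrays did not overlap, as in every called gene. THBD, the anticoagulant receptor thrombomodulin, stood at 8.19, 8.15 and 8.22 in control and 7.03, 7.30 and 7.06 in receptor cultures (-1.06 ± 0.11, adjusted p = 1.25e-04). SOX18, an endothelial transcription factor, had -0.77 ± 0.11 (adjusted p = 0.00151), and outside this list SELP, the P-selectin that recruits leukocytes, was 2-fold lower in each culture (7.31, 7.32 and 7.31 against 5.95, 5.40 and 5.31, -1.76 ± 0.19, adjusted p = 1.74e-04). CDH5, the endothelial cadherin, was not called at -0.14 ± 0.11 (adjusted p = 0.473). The marker VWF was not called either, and its receptor levels of 11.14, 8.91 and 8.75 lay on both sides of the control levels of 10.62, 10.40 and 10.34. There were 11 lower calls without receptor culture 1, 5 without control culture 1 or 2, and the 2 higher calls were lost without control culture 1, control culture 2 or receptor culture 2. Of 10 mesenchymal genes 1 was called higher (10.0%) and 2 lower (20.0%), against 3.74% and 4.79% of all genes. The summed level of the 27 endothelial genes, in linear normalized units, was 54532 to 59021 on control arrays and 38688 to 52060 on receptor arrays.

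Of 40 matrix, integrin and matrix protease genes 12 were called lower (30.0%) and 0 higher, with a median of -0.30 and 4 to 11 lower calls without each array in turn, with 4 calls without control culture 1 or 2. Beside MGP, the gelatinase MMP2 had -0.88 ± 0.12 (adjusted p = 8.75e-04) and the protease stromelysin-2, MMP10, had -1.41 ± 0.24 (adjusted p = 0.00387). HSPG2, the basement membrane proteoglycan perlecan, was detected on all control and 0 receptor arrays and was at least 1.42-fold lower (adjusted p = 0.00233). Of 18 semaphorins, plexins and slits, guidance ligands and receptors of vessels and nerves, 3 were called lower (16.7% against 4.79% of all genes) and 0 higher. The 3 were plexins: PLXNB1 (-1.16 ± 0.16, adjusted p = 8.03e-04), PLXNA4 (-1.10 ± 0.17, adjusted p = 0.00224) and PLXNA2 (-1.08 ± 0.17, adjusted p = 0.00197).

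In the Wnt pathway 4 of 21 genes were called lower, against 4.79% of all genes, and 0 higher. The list median was -0.1, close to that of all genes (-0.01). The number of lower calls stayed at 4 without each array in turn. SFRP1, a secreted Wnt antagonist, went from 7.48, 7.61 and 7.53 to 4.33, 4.84 and 4.49 and was detected on 0 receptor arrays, at least 6.5-fold lower (adjusted p = 2.08e-07). The Wnt receptor FZD8 stood at 7.76, 7.62 and 7.45 in control and 5.84, 6.01 and 6.16 in receptor cultures (-1.61 ± 0.16, adjusted p = 1.09e-04), and the receptor FZD4 and co-receptor LRP5 had -0.72 ± 0.12 (adjusted p = 0.00252) and -0.84 ± 0.15 (adjusted p = 0.00545). The antagonist and the receptor genes moved in the same direction. TLE2, a Groucho-type corepressor outside this list, was among the most even decreases, with differences of -1.26, -1.27 and -1.20 in the 3 cultures (-1.24 ± 0.12, adjusted p = 8.31e-05).

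Retinoid metabolism had 2 of 11 genes called lower (18.2% against 4.79% of all genes) and 0 higher. Both were 2-fold lower in every culture. ALDH1A1, which oxidises retinaldehyde to retinoic acid, had levels of 12.07, 12.23 and 12.11 in control and 10.40, 10.55 and 10.52 in receptor cultures (-1.65 ± 0.12, adjusted p = 5.88e-06). CYP26B1, which breaks retinoic acid down, had 9.97, 9.88 and 9.59 and 8.37, 8.21 and 8.25 (-1.54 ± 0.17, adjusted p = 1.74e-04). The enzymes of synthesis and of breakdown were both lower by similar amounts, and in both the receptor cultures were close to each other. AKR1B10, an aldo-keto reductase that also acts on retinaldehyde, stood at 7.43, 7.63 and 7.60 and 5.18, 5.85 and 5.85 (-1.93 ± 0.25, adjusted p = 6.18e-04), and the retinoid X receptor RXRA, a partner of many nuclear receptors, had -0.69 ± 0.11 (adjusted p = 0.00207).

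Further lower genes of the set were sorted by role after their values were seen, and the groups carry no test. A range is given over members detected on at least 1 array of each line, and the others by their bounds. Genes of adhesion and surface proteins were the protocadherins PCDH10, PCDHB2 and PCDHB5, the neuronal adhesion genes NRCAM and CNTNAP3 and the platelet and endothelial protein MMRN1. With SELP, 6 of these 7 ran from -2.29 to -1.52 in log2 fold, and PCDHB5 was detected on 0 receptor arrays (at least 1.5-fold lower). Among peptidases CPA3, CPQ and the aspartic protease BACE2 ran from -2.50 to -1.09, and CPE, which trims prohormones, was detected on 0 receptor arrays (at least 1.93-fold lower). In energy metabolism and oxidation SLC25A4, the mitochondrial carrier of ADP and ATP, BPGM and the inducible oxidase CYP1A1 ran from -1.86 to -1.14. CPT1C and OXCT1, which activates ketone bodies, were detected on 0 receptor arrays (at least 2.93-fold and 1.72-fold lower). Receptors and signalling genes were LPAR1 for lysophosphatidic acid, IL1RL1 for interleukin 33, PLA2R1, the phospholipase PLCH2 and WAS, the actin regulator of blood cells, from -1.60 to -1.21. Of the testis genes of the X chromosome VCX3A had -1.51, while VCX and VCX3B were detected on 0 receptor arrays (at least 3.13-fold and 2.93-fold lower). They are near-identical copies whose probes may read each other. HOPX, an atypical homeodomain protein, was detected on 0 receptor arrays (at least 2.85-fold lower), and NPTX1, a neuronal pentraxin, likewise (at least 1.7-fold lower).

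Lower genes of the set that were put in no group were 19 with gene names and 3 with placeholder symbols. Detected on at least 1 array of each line were the elongation factor EEF1A2, the transporter ABCA8, the lipid carrier APOD, the chaperone HSPA2, the kinase NEK7, RAB3IL1, SUGCT, LRRC17, PLAC9, KBTBD11, TMEFF2, CCDC106, SEL1L3, CART1, SPOCD1, NREP, CCDC68 and MYADM, from -2.34 to -1.09, and the placeholder symbols, from -1.50 to -1.38. Of these, EEF1A2, APOD, SEL1L3 and CART1 were detected on 1 receptor array, and LRRC17, PLAC9 and TMEFF2 on 2, which limits their folds. The septin SEPTIN5 was detected on 0 receptor arrays (at least 2.06-fold lower). Higher genes of the set that are not described below were the protease gene CAPN11, the myosin genes MYH10 and MYH16, the mitotic kinase NEK2, AJUBA, ADGRV1, IL1RAPL1 and TMEM154, from 1.23 to 2.02, and 3 placeholder symbols from 1.36 to 1.39. PTPRN2 and the placeholder LOC646836 were detected on 0 control arrays (at least 2.27-fold and 1.73-fold higher).

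Increases were fewer in the strict set, and the largest was that of SYTL2, a synaptotagmin-like effector of Rab27 in secretory vesicle transport. Its control levels were 5.63, 5.08 and 5.59 and its receptor levels 9.67, 8.43 and 8.54, with culture 1 highest (log2 fold 3.45 ± 0.36, adjusted p = 1.32e-04, or 10.9-fold higher). Of 20 genes of exocytosis and Rab effectors 2 were called higher and 3 lower, against 3.74% and 4.79% of all genes. The lower ones were SYT11, a synaptotagmin (-1.38 ± 0.24, adjusted p = 0.00466), RAB38 (-0.80 ± 0.14, adjusted p = 0.00476), a Rab of melanosomes and other lysosome-related organelles, and MYRIP, a linker of Rab27 to myosin (-1.03 ± 0.20, adjusted p = 0.00762). CALB2, the calcium buffer calretinin, rose from undetected levels of 4.66, 4.54 and 4.66 to 6.23, 7.41 and 7.64, at least 4.7-fold (adjusted p = 0.00209), with culture 1 lowest. CACNA2D4, a calcium channel subunit, rose from undetected levels of 4.66, 4.66 and 4.61 to 6.34, 6.26 and 6.26, at least 2.68-fold (adjusted p = 4.79e-06), and its receptor cultures were nearly equal.

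FAM107A, an actin-associated protein of the nervous system, went from 4.76, 5.16 and 5.30 to 7.36, 7.47 and 7.71 (2.44 ± 0.15, adjusted p = 2.56e-06). APLN encodes apelin, a peptide of endothelial tip cells that lowers vascular tone, and stood at 8.82, 8.41 and 8.91 in control and 10.91, 10.74 and 10.57 in receptor cultures (2.02 ± 0.14, adjusted p = 4.16e-06). As the strict set requires, every receptor array of these genes stood at least 2-fold above the control mean. SLC6A12, a transporter of betaine and GABA, was detected on 1 control array and rose from 4.63, 4.91 and 4.54 to 6.54, 7.09 and 6.93 (2.16 ± 0.19, adjusted p = 3.68e-05). The phosphodiesterase PDE7B, which degrades cyclic AMP, rose from 5.45, 5.64 and 5.49 to 6.93, 7.46 and 7.50 (1.77 ± 0.15, adjusted p = 2.71e-05). HSD11B1, which regenerates cortisol from cortisone, had 4.76, 5.02 and 5.20 and 7.41, 6.24 and 6.59 (1.76 ± 0.27, adjusted p = 0.002). Cultures 2 and 3 were highest for PDE7B and culture 1 for HSD11B1. MYLK2, a myosin light chain kinase of skeletal muscle, was not 2-fold higher in culture 1 (levels 6.85, 8.06 and 8.47 against 5.96, 5.87 and 5.98, adjusted p = 0.0117) and lost its call without control culture 2 (0.0531) or receptor culture 2 (0.0541).

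Several of the higher genes, and some lower ones of the set, are known mainly from blood cells. NCKAP1L, the blood cell subunit of the WAVE complex that builds actin networks, stood at 5.61, 5.79 and 5.95 in control and 7.63, 7.59 and 7.84 in receptor cultures (1.91 ± 0.13, adjusted p = 3.03e-06). CD53, a leukocyte tetraspanin, had 5.38, 6.09 and 5.61 and 7.20, 7.32 and 7.79 (1.74 ± 0.24, adjusted p = 0.00101), and LAPTM5, a lysosomal membrane protein, 6.82, 6.75 and 6.64 and 7.97, 8.71 and 8.36 (1.61 ± 0.17, adjusted p = 1.36e-04). HAVCR2, the immune checkpoint receptor TIM-3, and ARHGAP9, a GTPase-activating protein, had 1.60 ± 0.18 (adjusted p = 1.74e-04) and 1.43 ± 0.21 (adjusted p = 0.00134). In each of these genes the 3 receptor arrays lay above the 3 control arrays, a separation that every called gene showed. Of 6 tested leukocyte markers 2 were called higher (33.3% against 3.74% of all genes) and 0 lower. The higher ones were the actin-bundling protein LCP1, undetected in control cells and at least 1.44-fold higher (adjusted p = 0.00574), and the integrin ITGAX (0.99 ± 0.19, adjusted p = 0.00662). The defining markers PTPRC and CD3E were detected on 0 of the 6 arrays, and the monocyte marker CD14 on 2 control arrays and 1 receptor array. The summed level of the 6 tested markers was 1622 to 1673 on control arrays and 1437 to 1528 on receptor arrays, thus lower in receptor cells, and their part in these results was not tested. The blood cell gene WAS was lower, at -1.60, as was the mast cell gene CPA3, at -2.50. GIMAP7 (-3.17) and GIMAP5 (-1.51), of a family that lymphocytes and endothelium express, were lower too.

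Of 7 tested keratins, intermediate filaments of epithelium, 3 were called higher (42.9% against 3.74% of all genes) and 0 lower, and the count was 3 without each array in turn. KRT8 stood at 9.65, 9.68 and 9.73 in control and 10.27, 10.76 and 10.64 in receptor cultures (0.87 ± 0.17, adjusted p = 0.00793), and its partner KRT18 at 7.51, 7.54 and 7.86 and 8.37, 8.57 and 8.59 (0.87 ± 0.15, adjusted p = 0.0033). KRT80 had 0.84 ± 0.13 (adjusted p = 0.00185). In the wider epithelial list these 3 were the only higher calls among 9 genes, the mucin MUC1 was lower (-1.15 ± 0.18, adjusted p = 0.00225), and the epithelial cadherin CDH1 was detected on 0 arrays. The summed level of those 9 was 3947 to 4094 on control and 4909 to 7866 on receptor arrays. The cultures did not move alike, with list medians of 0.46, 0.44 and -0.05 in cultures 1, 2 and 3. The marker KRT7 was not called, at 10.43, 10.57 and 10.57 in control and 10.31, 11.57 and 11.65 in receptor cultures. EPCAM was not called either, at 5.56, 5.41 and 5.40 and 6.18, 5.48 and 4.86. CGN, the tight junction protein cingulin, had 1.33 ± 0.18 (adjusted p = 8.63e-04), and CDH2, the N-cadherin of mesenchymal and endothelial cells, had 0.63 ± 0.12 (adjusted p = 0.00612).

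Genes of mitosis were higher in 13 of 38 members (34.2%) and lower in 0, with a median of 0.35 and culture medians of 0.19, 0.42 and 0.43. TTK and BUB1, kinases of the spindle checkpoint, had 0.93 ± 0.16 (adjusted p = 0.00367) and 0.72 ± 0.13 (adjusted p = 0.00595), the topoisomerase TOP2A had 0.55 ± 0.11 (adjusted p = 0.00686) and the chromosomal passenger kinase AURKB 0.56 ± 0.11 (adjusted p = 0.00751). Between 4 and 13 members were called without each array in turn, the fewest without control culture 2. Clustered histone genes had 4 of 24 called higher (16.7% against 3.74% of all genes) and 0 lower, with culture medians of 0.04, 0.50 and 0.69. H1-2 stood at 7.27, 7.19 and 7.12 in control and 7.74, 8.28 and 7.97 in receptor cultures (0.81 ± 0.14, adjusted p = 0.00341), and H2BC21 had 0.75 ± 0.16 (adjusted p = 0.0117). The count was 10 without receptor culture 1, 2 without control culture 2, and 3 without control culture 1 or receptor culture 2. The call of H2BC21 was lost without control culture 2 (adjusted p = 0.0625). DNA replication had 4 of 41 higher (9.76%) and 1 lower (2.44%). Among them were MCM5 of the replicative helicase at 0.49 ± 0.13 (adjusted p = 0.0328) and GINS4 of the same machine at -0.48 ± 0.12 (adjusted p = 0.0251). Both calls were lost without control culture 1 or 2 or receptor culture 1 or 2. They were also lost in the vehicle arrays fitted alone (adjusted p = 0.0776 and 0.0599), and that of GINS4 without control culture 3 (0.06). The marker MKI67 was not called at 0.11 ± 0.14 (adjusted p = 0.66).

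Of 23 genes of cholesterol synthesis and uptake 6 were called higher (26.1%) and 0 lower, with a median of 0.33. HMGCS1, which makes HMG-CoA, had 0.55 ± 0.15 (adjusted p = 0.0339), ACAT2 0.50 ± 0.11 (adjusted p = 0.0146), EBP 0.39 ± 0.10 (adjusted p = 0.0317) and the rate-setting SQLE 0.49 ± 0.13 (adjusted p = 0.0354). These differences were close to the threshold, and 0 members were called without control culture 1 or 2, and 1 without control culture 3 or receptor culture 2. NF-kB targets and leukocyte adhesion genes had 7 of 24 higher (29.2%) and 1 lower, with a median of 0.34. TNIP1, a brake on the pathway, had 0.71 ± 0.14 (adjusted p = 0.00797). The adhesion molecule SELE was undetected in control cells and at least 1.13-fold higher (adjusted p = 0.0202), while SELP was lower. Without each array in turn 1 to 4 were called higher, 1 without control culture 1 or 2. Of 29 targets of ATF4, the factor that answers amino acid shortage, and tRNA synthetases 5 were higher (17.2% against 3.74% of all genes) and 1 lower (3.45% against 4.79%). Among the higher ones were ATF3 (1.31 ± 0.15, adjusted p = 2.06e-04) and the serine synthesis enzyme PHGDH (0.82 ± 0.12, adjusted p = 0.00144).

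**Figure D3:**
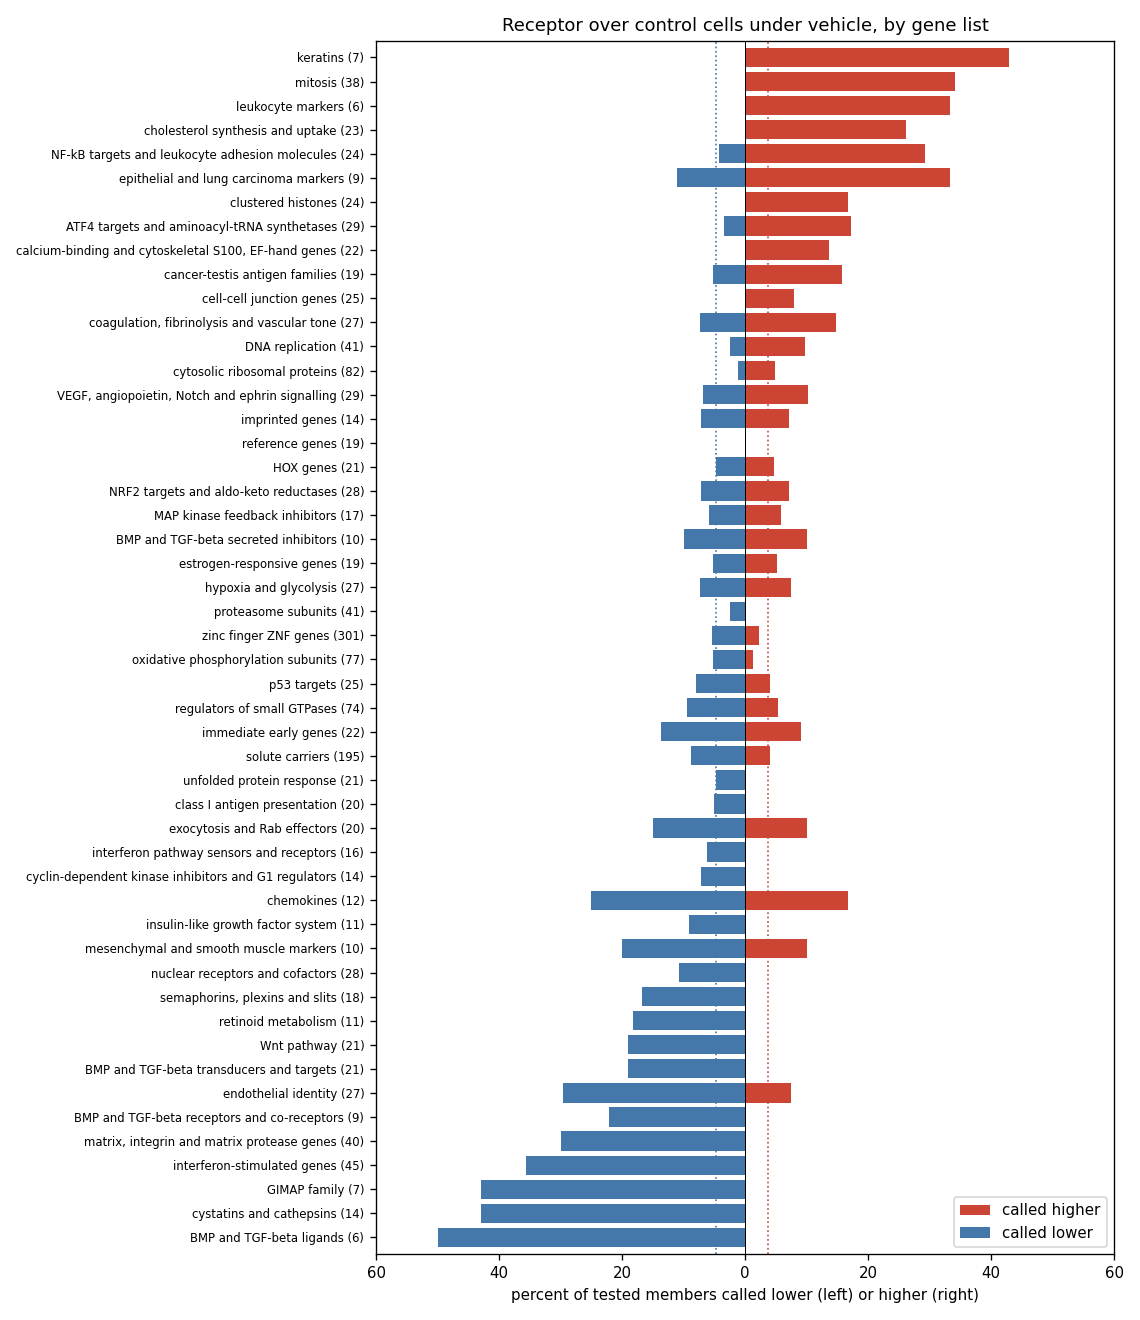
Percent of the tested members of each gene list called lower (bars to the left) or higher (bars to the right) in receptor cells under vehicle, for lists with at least 6 tested members, whose number stands in brackets. Dotted lines mark the shares over all genes, 4.79% lower and 3.74% higher. BMP and TGF-beta ligands, cystatins and cathepsins, GIMAP and interferon-stimulated genes reach furthest to the left and keratins and mitosis genes furthest to the right.

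Lists of basic cell functions gave few calls. Of 19 reference genes 0 were called, with a median of 0.02, and 0 or 1 were called in a direction without each array in turn. The actin gene ACTB had -0.33 ± 0.10 (adjusted p = 0.0614) and GAPDH, of glycolysis, had -0.10 ± 0.11 (adjusted p = 0.612). Of 82 cytosolic ribosomal protein genes 4 were higher (4.88%) and 1 lower (1.22%) around a median of -0.01, and of 41 proteasome subunits 0 and 1 (2.44%). Of 77 subunits of oxidative phosphorylation 1 was higher and 4 lower (5.19%), of 21 genes of the unfolded protein response 0 and 1, and of 20 of class I antigen presentation 0 and 1. Solute carriers had 8 of 195 higher and 17 lower (8.72% against 4.79% of all genes), and without each array in turn 4 to 8 were higher and 4 to 17 lower, the fewest without control culture 2. Zinc finger ZNF genes had 7 of 301 higher and 16 lower (5.32%), with 2 to 12 higher and 4 to 20 lower without each array in turn. There were 4 lower calls without control culture 2 or receptor culture 2. Smaller lists with shares above those of all genes were coagulation and vascular tone, with 4 of 27 higher (14.8%) and 2 lower, cancer-testis antigens, with 3 of 19 higher (15.8%) and 1 lower, and S100 and EF-hand genes, with 3 of 22 higher (13.6%) and 0 lower. Without each array in turn the higher calls of these 3 lists were 3 to 5, 2 or 3, and 2 or 3. Immediate early genes had 3 of 22 lower (13.6%) and 2 higher, with 0 to 3 lower calls without each array in turn and 0 without control culture 2.

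Genes known to respond to estrogen in breast and uterus stayed near the background without hormone. Of 30 listed 19 could be tested, and 1 was called in each direction (5.26%, against 3.74% higher and 4.79% lower over all genes). The higher one was the small heat shock protein HSPB8 (0.56 ± 0.11, adjusted p = 0.00985), and the lower one the adenylate cyclase ADCY9 (-0.65 ± 0.17, adjusted p = 0.0317). Without background correction both missed the threshold, ADCY9 with an adjusted p of 0.0653 and HSPB8 with 0.0584, and leaving out control culture 2 ended both calls. The call of ADCY9 was also lost without control culture 1 or 3 or receptor culture 2 or 3 (adjusted p 0.0657 to 0.103). The list median was -0.14, and PGR, GREB1 and TFF1 did not pass the detection filter. Among nuclear receptors and their cofactors, 28 tested, there were 3 lower (10.7%) and 0 higher calls, among them the liver X receptor NR1H2 (-0.79 ± 0.12, adjusted p = 0.00136) and RXRA.

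The consensus estrogen response element, GGTCA followed after any 3 bases by TGACC, was searched on both strands and stood in 2 of the 9621 promoters (0.0208%) and in 17 of the 27303 genes' promoters that the RefSeq table held (0.0623%). Of the 2, 1 belonged to a called gene, ZNF669, a zinc finger gene that was higher by 0.67, and it begins at position -174 from the start of the gene. Its promoter spans chr1:247104307-247104606 (minus strand) in GRCh38.p14 and is printed with the element in capitals.
ZNF669: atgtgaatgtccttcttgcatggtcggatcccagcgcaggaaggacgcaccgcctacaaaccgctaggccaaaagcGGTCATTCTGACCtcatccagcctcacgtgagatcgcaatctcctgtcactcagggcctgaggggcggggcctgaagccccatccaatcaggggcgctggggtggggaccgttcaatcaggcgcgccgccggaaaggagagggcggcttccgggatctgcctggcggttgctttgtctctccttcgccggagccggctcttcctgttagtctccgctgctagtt
Distant elements lie outside such windows and were not searched.

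Promoters of the strict set held fewer CG dinucleotides than most. The median number of CG dinucleotides in 300 bases was 26 over all 9621 promoters, 24 in called higher and 25 in called lower genes, but 9 in the 15 promoters of the higher and 10 in the 54 promoters of the lower genes of the set. Median GC content was 64.7% over all, 54.3% in the higher and 58.2% in the lower genes of the set. AMTN and CLIP3, both undetected on every receptor array, are printed here. Their RefSeq promoters span chr4:70518319-70518618 (plus strand) and chr19:36032586-36032885 (minus strand) in GRCh38.p14, and capitals mark CG dinucleotides, 0 in AMTN and 20 in CLIP3.
AMTN: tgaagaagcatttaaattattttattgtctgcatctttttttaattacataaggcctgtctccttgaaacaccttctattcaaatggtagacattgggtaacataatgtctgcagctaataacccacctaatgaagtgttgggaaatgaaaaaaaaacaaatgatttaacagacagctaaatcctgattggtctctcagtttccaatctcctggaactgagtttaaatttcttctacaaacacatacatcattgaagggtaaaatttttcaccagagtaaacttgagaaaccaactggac
CLIP3: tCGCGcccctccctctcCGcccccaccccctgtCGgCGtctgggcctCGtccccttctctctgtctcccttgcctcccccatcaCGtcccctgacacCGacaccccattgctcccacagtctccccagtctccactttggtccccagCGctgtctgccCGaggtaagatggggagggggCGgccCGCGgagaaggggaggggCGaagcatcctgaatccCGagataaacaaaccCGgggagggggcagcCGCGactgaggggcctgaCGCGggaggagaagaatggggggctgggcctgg
Both counts lie below the median over all promoters.

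The receptor cultures did not agree on most large differences. Culture 1 stood at least 2-fold from the control mean in 591 genes (3.88%, with 373 higher and 218 lower), culture 2 in 432 (2.83%, 248 and 184) and culture 3 in 318 (2.09%, 128 and 190). A control array stood 2-fold from the mean of the other control arrays in 3, 1 and 5 genes. Of the higher genes 244 were so in culture 1 and no other, of which 56 were called, 92 in cultures 1 and 2, 43 in cultures 2 and 3, and 8 in cultures 1 and 3. Of the lower genes 110 were so in culture 1 and no other, 50 in cultures 2 and 3, 25 in cultures 1 and 2, and 8 in cultures 1 and 3. Cultures 1 and 3 thus shared the fewest differences with each other alone. In 3 genes a culture was 2-fold higher and another 2-fold lower.

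**Figure D4:**
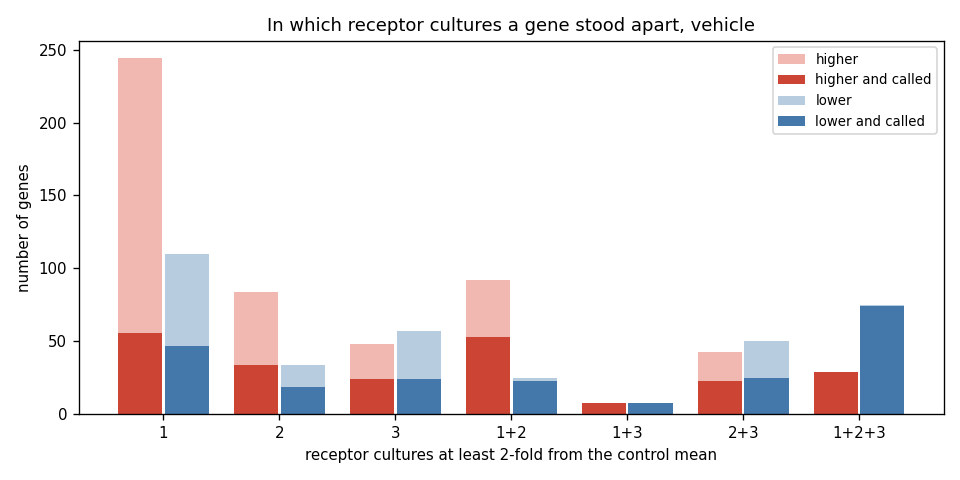
Number of genes (vertical axis) at least 2-fold from the control mean in exactly the receptor cultures named on the horizontal axis, higher in red and lower in blue, with the called genes in the darker part of each bar. The 244 genes higher in culture 1 alone form the tallest bar, of which 56 were called, and of the genes apart in all 3 cultures RARB alone was not called.

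The 10 genes with the widest range between receptor cultures were mostly ones that 1 culture kept or lost. SPATA18, a gene of mitochondrial quality control, had control levels of 7.65, 7.64 and 7.55, and 8.24, 4.47 and 4.32 in receptor cultures. It was thus kept in culture 1 and lay below the lowest detected levels of the arrays of cultures 2 and 3 (4.84 and 4.86). The same order held for MAGEA1, a testis antigen that tumours express (8.39, 8.35 and 8.56 against 9.21, 6.28 and 6.13), and for TAFA2, a secreted neuronal protein (6.93, 6.72 and 6.81 against 8.57, 4.55 and 4.52). The chemokine receptor CXCR4 had the opposite order, at 7.37, 7.20 and 7.57 in control and 4.30, 7.67 and 8.34 in receptor cultures, and was below the limit of detection in culture 1. FABP4, the fatty acid carrier of capillaries, went with it (7.61, 7.41 and 7.73 against 5.52, 8.57 and 9.04), as did the matrix peroxidase PXDN (7.92, 7.92 and 7.90 against 5.98, 9.08 and 8.37). MAGEC1, another testis antigen, stood at 4.69, 4.41 and 4.86 in control and 4.65, 8.06 and 8.20 in receptor cultures, so it was high in cultures 2 and 3. LDB2, a LIM domain binding protein, stood at 5.00, 5.07 and 5.24 and 7.84, 5.19 and 4.71, highest in culture 1. Of the 10 genes only CCL23 was called. LOC100134134, CXCR4, PXDN and LDB2 changed sign without culture 1.

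Among the members of the strict set with the narrowest range between receptor cultures, TLE2 and FLJ21986, a placeholder symbol, were detected on all 6 arrays. Their differences from the control mean were -1.26, -1.27 and -1.20 and 1.16, 1.16 and 1.09. VCX, HOPX, NPTX1, PCDHB5 and CPT1C also had a narrow range, but receptor arrays did not detect them, so their levels lay at the background of the arrays. The range of CACNA2D4 was narrow on receptor arrays that all detected it, with differences of 1.69, 1.61 and 1.61 from an undetected control level.

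The same lines given estradiol served as other arrays of the same difference. There 1159 genes (7.6%) were called, 494 higher (3.24%) and 665 lower (4.36%). Of the 1302 vehicle calls 749 were called in the same direction there (57.5%, which is 64.6% of the 1159), 282 higher and 467 lower, 0 were called in the opposite direction and 1282 (98.5%) had the same sign. All 103 genes of the strict set were called in the same direction. These arrays share their cultures' state with the vehicle arrays: deviations from the group mean of receptor arrays with the same number correlated across genes at 0.762, 0.39 and 0.666, against 0.08, 0.033 and 0.106 in control cells. The 2 treatments are therefore not independent sets of cultures. The count of 749 was 461 when each treatment was fitted alone, 427 without control culture 1, 387 without control culture 2, 492 without receptor culture 2 and 1586 with array weights.

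**Figure D5:**
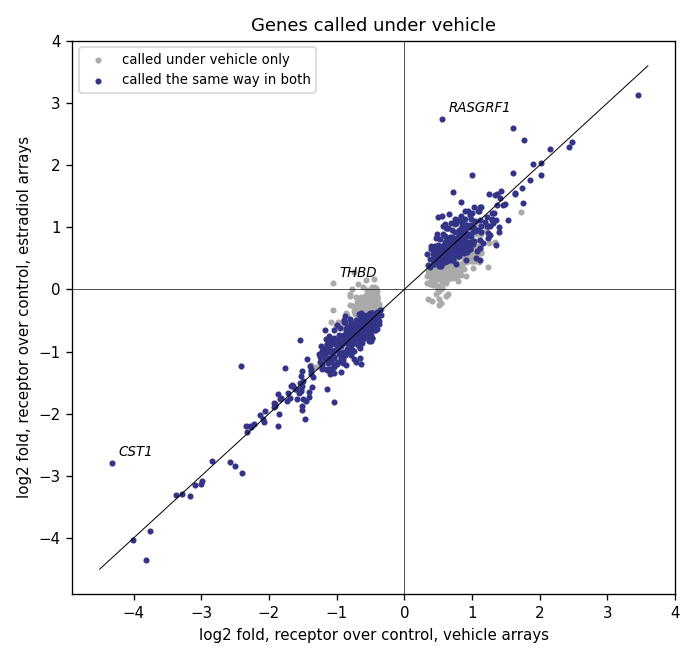
Log2 fold of receptor over control cells on the vehicle arrays (horizontal axis) and on the estradiol arrays (vertical axis) for the 1302 genes called under vehicle, dark where the estradiol arrays gave a call in the same direction. The diagonal marks equal folds. Most genes lie along it, CST1 and RASGRF1 lie off it, and THBD lies near 0 on the vertical axis.

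The difference between the vehicle and the estradiol comparison was called in 5 genes (0.0328%), and 2 of these were vehicle calls. THBD was lower in receptor cells under vehicle but not under estradiol, where control levels were 7.93, 8.21 and 8.03 and receptor levels 8.17, 8.19 and 8.11 (log2 fold 0.10, difference of the 2 effects -1.16 ± 0.16 SE, adjusted p = 0.0227). RASGRF1, an exchange factor of Ras, was undetected in control cells and at least 1.32-fold higher under vehicle (adjusted p = 0.0274), against a log2 fold of 2.74 under estradiol. For CST1 the smaller decrease under estradiol (-2.79) did not pass this test (adjusted p = 1), nor did that for CST4 (-1.24, adjusted p = 0.266). None of the 103 genes of the strict set passed it in this fit, which does not use the likeness of same-numbered receptor arrays. With the replicate number as a block within each line, 11 differences were called, and CST4 was the 1 gene of the strict set among them (adjusted p = 0.0365), while CST1 had 0.188.

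The share of calls differed between chromosomes, as a description without a test. Of tested genes on chromosome 10 12.1% were called lower, on chromosome 4 11.7% and on chromosome 20 9.12%, against 4.79% overall and 1.43% on chromosome 14. Genes called higher ran from 0.758% on chromosome 21 to 5.26% on chromosome 3. The median log2 fold of chromosome 4 was -0.18, in all 3 receptor cultures below 0 (-0.11, -0.20 and -0.21), while that of chromosome 19 was -0.34 in culture 1 and -0.08 and -0.04 in the others. Of the lower genes named above, AMTN, FSTL5, HERC5, HOPX, SLC25A4, MMRN1, PCDH10, CPE and SEL1L3 of the strict set lie on chromosome 4, as does the higher gene TMEM154. The set held 10 of 419 tested genes on chromosome 4, 11 of 1259 on chromosome 1 and 9 of 586 on chromosome 7. Over all tested genes it held 0.675%. Among the 103 genes 5 pairs stood next to each other in the RefSeq order of the tested genes. They were CCL14 with CCL15, CCL15 with CCL23, CST4 with CST1, PCDHB2 with PCDHB5 and AKR1B10 with BPGM. Every pair was lower, and genes that were not tested may lie between the members of a pair. The copy number of these chromosomes in the lines was not measured, so its part in these counts was not tested.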

How the data were processed

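Illumina BeadChips measured RNA of EA.hy926 cells. The non-normalized table deposited by the authors holds, per the file headers, an intensity of each probe on each array and a detection p-value for it. The authors' normalized intensity table, for which the submitters' processing notes name lumi, served as an alternative only. The genome build is not given in the sources used here. Of 47322 probes 1 (CDC25C) lacked values on 4 receptor arrays and was dropped.

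The neqc function of limma 3.58.1 (R 4.3.3) used the detection p-values for background correction, added an offset of 16, quantile normalised and took log2 of the deposited intensity. Probes detected (p under 0.05) on at least 3 of 12 arrays were kept (21476, of which 19953 were named), and the brightest probe stood for a gene (15249 genes, 3619 with several probes, of which CPEB2 and PARPBP had another probe called in the opposite direction). Of all probes 27036 held a current RefSeq symbol, 4675 were updated, 12341 kept the file's symbol and 3270 had none. The limma model had a mean for each of 4 groups (8 residual and 4.62 prior degrees of freedom). A gene was called at a two-sided Benjamini-Hochberg adjusted p under 0.05. The fit was tested on simulated data.

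Precision is limited by the number of arrays and by background. Replicate numbers do not pair the lines: deviations of same-numbered control and receptor vehicle arrays correlated at 0.036, -0.053 and 0.011. Genes were named by rule: the 15 highest and 15 lowest folds, up to 4 called members with the smallest p per list, the 8 most even and 10 least even genes, and 15 fixed examples. Other genes of the strict set, CST3, CTSA, CCL20, MKI67, RARB, ZNF669, KRT7, EPCAM, FLI1, CD34, the genes next to the 2-fold limit and those whose effects differed between treatments were named after their values were seen. A few genes are not reported here. Members, lists and rules were chosen with earlier results of these data known. Alternatives were background correction, offset, filter, probe choice, samples fitted, replicate block, array weights and leaving out each array. Counts of list members under these settings were added after seeing the data.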

Additional observations from a re-analysis of the deposited data

Results flagged for a closer look

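In 5 genes the log2 fold of receptor over control cells under vehicle and that under estradiol differed by a test of the difference in limma, on 3 arrays per group. The difference, vehicle minus estradiol, was -2.39 ± 0.31 (SE, adjusted p = 0.0214) for VASN, a membrane protein that traps TGF-beta. Its log2 fold was 0.36 under vehicle and 2.75 under estradiol, where the receptor levels were 8.38, 8.20 and 8.29 and the control levels 5.48, 5.37 and 5.78. RASGRF1 had -2.18 ± 0.20 (SE, adjusted p = 0.00125), with receptor levels of 5.47, 5.30 and 5.01 under vehicle and 7.49, 7.23 and 7.59 under estradiol, and control cells undetected under vehicle. SMOX, the spermine oxidase, had -1.47 ± 0.16 (SE, adjusted p = 0.00593), with folds of 0.09 and 1.55. INPP4B, a phosphatase of phosphoinositides, had -1.27 ± 0.18 (SE, adjusted p = 0.026), with folds of 0.31 and 1.59. THBD had -1.16 ± 0.16 (SE, adjusted p = 0.0227), with folds of -1.06 and 0.10. In all 5 genes the fold was larger or less negative under estradiol, and only for THBD was the vehicle fold the larger in size.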

How the results depend on the processing

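Across the counts of calls, 65 of 95 values under other settings stayed within 1.5 times of the value reported, and where one did not the cause was not tested unless the setting itself gives it. The set of 103 genes was 28 without background correction, 29 in the authors' normalized values and 56 with an offset of 50, all among the 103. Fitting each treatment alone, which gives no test of the difference between them, gave 461 in place of 749 shared calls. Array weights (0.37 to 1.91) gave 3020 calls (1429 higher and 1591 lower), 1586 shared with the estradiol arrays and 9 differences in place of 5. The replicate block across both lines gave 1736 calls, and the block within each line 1413 calls and 11 differences. Without each array in turn, which leaves a group of 2, calls ran from 479 to 1555, higher calls from 189 to 795, lower calls from 290 to 760, the strict set from 98 to 214, shared calls from 387 to 806 and differences from 2 to 5. The difference in ESR1 ran from -0.0286 to 0.1066 and changed sign without receptor culture 1.

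Of 184 named genes 165 were called. Leaving out control culture 2 lost most calls (51), and fitting the vehicle arrays alone lost 26. Signs turned in 9 named genes. PXDN was 0.0543 without background correction, 0.0524 in the authors' values and 0.5622 with array weights, VIM 0.0035 and GPER1 -0.0233 with array weights, and RPL13, a ribosomal protein gene called higher, -0.0395 with the mean of its probes. Without each array in turn LOC100134134 ran from -1.6881 to 0.3602, CXCR4 from -1.3948 to 0.6269, PXDN from -0.7392 to 0.811, VIM from -0.0678 to 0.0506, GPER1 from -0.0592 to 0.266, ERG from -0.0231 to 0.1658, FABP4 from -0.5397 to 1.2226 and LDB2 from -0.1506 to 1.4159. Levels under the lowest detected ones (4.82 to 4.88) have no order, which limits folds of dim genes.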
